A study of Homo sapiens with 16 samples.

Results

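RNA-seq of HaCaT cells expressing the activated mutant YAP5SA was compared with that of HaCaT cells given the empty vector. HaCaT is a spontaneously immortalised line of human epidermal keratinocytes. The comparison takes 4 of the 16 libraries of the series, chosen by their labels: 3 of YAP5SA (replicates 1, 2 and 3) and 1 of the empty vector. YAP5SA, which the labels also call YAP1 S5A, is YAP1 with the serines that LATS kinases phosphorylate changed to alanine. No siRNA was given to either group, and both were grown in DMEM with fetal calf serum. The other 12 libraries hold the same vectors in A431, a human epidermoid carcinoma line, and control siRNA (siCTRL) or siRNA against YAP1 (siYAP) in both lines. The study's methods speak of transfected cells and of biological triplicates, and the timing in the labels describes the siRNA transfections only. How long YAP5SA was expressed, from which promoter, and in a pool or a clone of cells is not given in the sources used here. The labels exempt the control samples from triplicates, so the empty vector has no replicate. In the main fit p-values hold no spread of the empty vector and measure only that within the triplicates of the series, A431 and siYAP included.

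YAP is a transcriptional co-activator that has no DNA-binding domain of its own and acts mainly through TEAD factors. The Hippo kinases MST and LATS phosphorylate it, which holds it in the cytoplasm and marks it for degradation, and a mutant without these serines stays in the nucleus. In the epidermis nuclear YAP marks the basal layer, where the keratinocytes are attached to the basement membrane through integrins and divide, while the cells above it differentiate. Among the best known YAP-TEAD targets are the secreted matricellular genes CTGF and CYR61, the muscle ankyrin repeat gene ANKRD1, and feedback genes of the Hippo pathway itself such as LATS2 and AMOTL2.

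The 4 libraries held 34382933 to 39980642 estimated reads. Of the listed genes 16029 were detected with the empty vector and 17674, 15948 and 17665 in YAP5SA replicates 1, 2 and 3. Levels of genes are given as CPM, counts scaled to a common library size with TMM factors, which lay between 0.9135 and 1.02, and sums over markers as CPM without this scaling. All 12 keratinocyte markers were detected in each of the 4 libraries, with a summed level of 10240 CPM in the empty vector library and 11150, 8295 and 8933 CPM in YAP5SA replicates 1, 2 and 3. The 12 fibroblast and smooth muscle markers summed to 2.24 to 5.43 CPM, with 6 of them at 3 counts or fewer in every library and THY1 at 0. The 7 melanocyte markers summed to 31.9 to 63.7 CPM, nearly all of it MITF, with TYR at 0. The 12 immune and endothelial markers summed to 13.2 CPM with the empty vector and 23.7 to 38.6 CPM with YAP5SA, most of it CD68, a lysosomal protein that epithelial cells also make. Of the 6 of these markers that were tested 3 were called higher and 0 lower, and 2 kept the call with the GC trend removed. CD68 had 361 counts with the empty vector and 1268, 753 and 870 in YAP5SA replicates 1, 2 and 3, the antimicrobial enzyme LYZ had 17 and 75, 81 and 63, and the endothelial cadherin CDH5 had 4 and 26, 11 and 39. CD14 had 3 counts and 34, 0 and 22, PECAM1 had 0 and 15, 7 and 2, VWF had 62 and 52, 23 and 35, and CD3E, HBB and HBA1 were at 0 in all 4. In these bulk libraries fewer cells of a type and less RNA per cell cannot be told apart.

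The empty vector library stood apart from the others in the base composition of its transcripts. Genes with a logCPM above 1 were ordered by the GC content of their transcripts and split into 10 equal bins. In the lowest bin, between 32% and 40.0% GC, the median log2 difference from the empty vector was -0.30, -0.23 and -0.32 in YAP5SA replicates 1, 2 and 3. In the highest bin, from 61.7% to 73.8% GC, it was 0.58, 0.31 and 0.68. The siCTRL library of the same line, which carries no YAP5SA, showed the same trend against the empty vector, from -0.45 to 0.62. The fitted YAP5SA effect in A431 cells went the other way, from 0.08 to -0.11, and the siYAP effect in HaCaT cells lay between -0.05 and 0.11. The 2 control libraries of HaCaT cells were also far apart: 3639 of 12240 genes with a logCPM above 1 differed by more than 1 on the log2(CPM + 1) scale between siCTRL and empty vector. The same count was 610, 1163 and 1050 genes between the empty vector and YAP5SA replicates 1, 2 and 3. What set the empty vector library apart was not tested, and with 1 such library it cannot be told apart from the vector.

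**Figure D1:**
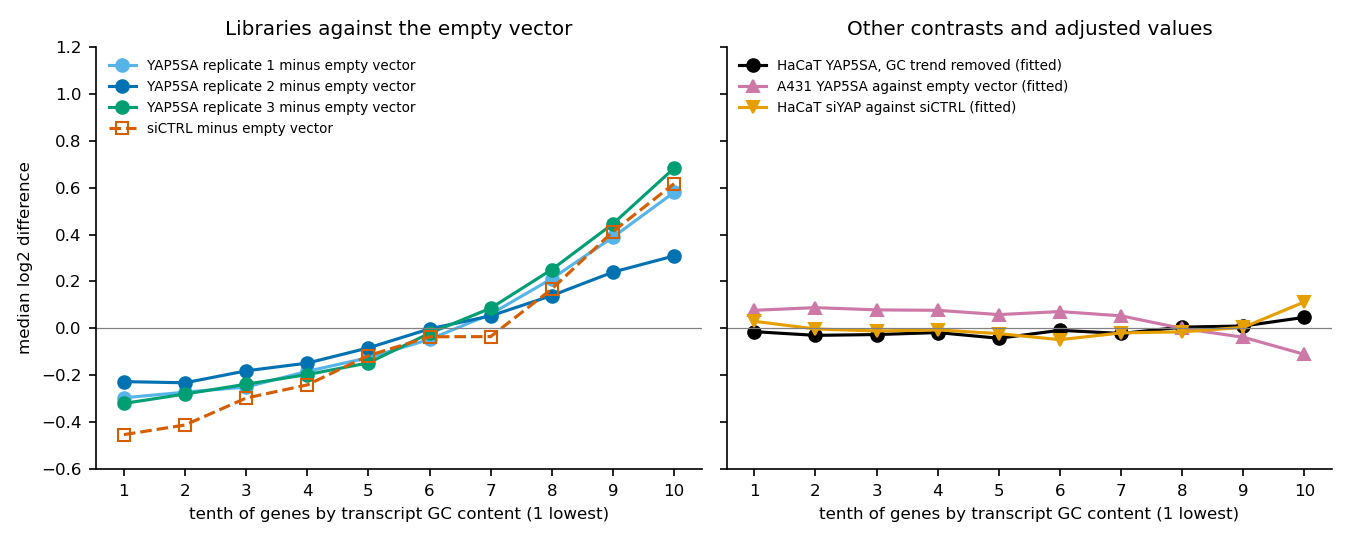
Median log2 difference (y axis) in 10 equal bins of genes with a logCPM above 1 ordered by transcript GC content (x axis, 1 lowest). On the left each HaCaT library is set against the empty vector library, and the 3 YAP5SA libraries and the siCTRL library rise together from bin 1 to bin 10; on the right the fitted effects of YAP5SA in A431 cells and of siYAP in HaCaT cells, and the HaCaT YAP5SA effect with the GC trend removed, stay between -0.11 and 0.11.

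Because of these values the comparison was fitted 3 times: as reported, with each library's GC trend removed, and with the siCTRL and empty vector libraries of each line as 2 controls. The second fit was added after the trend had been seen. Calls required an FDR below 0.05 together with a logCPM above 1. The logCPM is taken over all 16 libraries, so a called gene can be near absent from the 4 compared here. PTPRM was called higher at 0 CPM with the empty vector and 0.384, 0.574 and 0.459 CPM in YAP5SA replicates 1, 2 and 3. FDR stands for the p of edgeR's quasi-likelihood test after Benjamini-Hochberg adjustment across the 14673 genes tested. A gene is said to have held where all 3 fits called it in the same direction. The n is 3 YAP5SA libraries and 1 empty vector library as reported and with the GC trend removed. With 2 controls it is 3 against 2, the siCTRL and empty vector libraries, whose cells were treated differently. In each fit the spread was estimated over all 16 libraries. With 3 libraries set against 1, the smallest p of an exact permutation test is 0.25, so none is given for single genes.

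YAP1 itself was read first. The transcript had 423 CPM in the empty vector library, against 254 CPM in the siCTRL library, and 7549, 22255 and 10069 CPM in YAP5SA replicates 1, 2 and 3. All 3 YAP5SA libraries lay far above both controls, at 17.8, 52.6 and 23.8 times the empty vector. The fitted log2 fold change was 4.97 (SE 0.67, FDR = 0.00208), and the call held. YAP1 alone took 0.77%, 2.10% and 0.987% of all counts in the 3 YAP5SA libraries and 0.0386% with the empty vector. The YAP1 level of replicate 2 was 2.95 times that of replicate 1 and 2.21 times that of replicate 3. The counts do not separate the mutant from the cell's own YAP1 transcript. WWTR1, which encodes the paralogue TAZ, had 85.3 CPM with the empty vector and 106, 78.1 and 90.3 CPM with YAP5SA, a log2 fold change of 0.10 (SE 0.16, FDR = 0.686) that was not called, and whose sign turned to -0.20 with the GC trend removed.

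In all, 2001 of 14673 genes, or 13.6%, were called. Of these 1026 (6.99%) were higher and 975 (6.64%) lower with YAP5SA, and 578 (3.94%) rose and 176 (1.2%) fell by at least 1 on the log2 scale. At an unadjusted p under 0.05 there were 4660 genes. Without replicate 3 the counts were 627 and 516, without replicate 1 they were 1334 and 1576, and without replicate 2 they were 1257 and 931. The median transcript GC content was 58.9% among genes called higher, 43.2% among genes called lower and 49.3% among the other genes with a logCPM above 1. With the GC trend removed 410 genes (2.9%) were called higher and 412 (2.91%) lower, and 360 and 283 of these had been called before. With 2 controls 700 genes (4.77%) were called higher and 1208 (8.23%) lower, so that the share of higher calls moved from 51.3% to 36.7%. The genes that held were 172 higher and 193 lower, 1.22% and 1.36% of the genes with a GC value. Counts of called members in the lists below stand against the 6.99% and 6.64% of all tested genes.

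**Figure D2:**
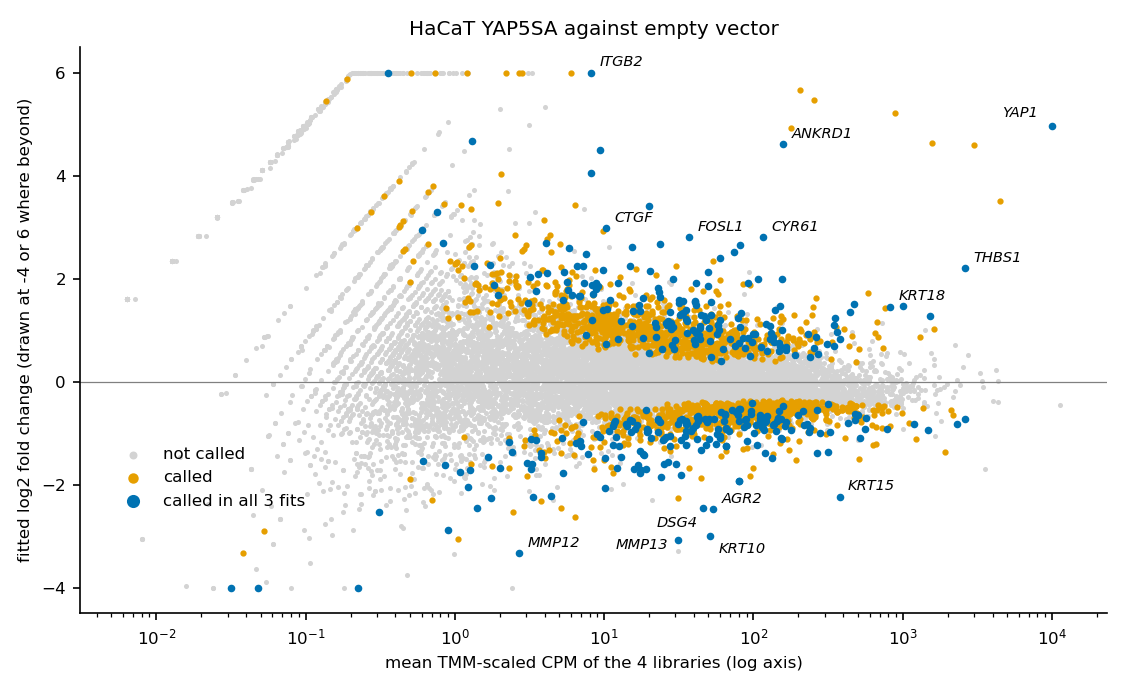
Fitted log2 fold change of YAP5SA against empty vector in HaCaT cells (y axis, values beyond -4 or 6 drawn at that value) against the mean TMM-scaled CPM of the 4 libraries (x axis, log scale), 1 point a gene. Genes that held, 172 higher and 193 lower, are blue, other called genes are orange, and YAP1, ANKRD1 and THBS1 stand out among abundant transcripts.

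Established YAP and TEAD targets were called higher more often than the 6.99% of all genes. Of 41 tested, 20 were called higher and 1 lower, the median log2 fold change of the list was 0.90, and 37 of 41 lay above 0, against a median of 0.0134 and 50.8% above 0 for all tested genes. With the GC trend removed the median was 0.64, and 16 of the 20 kept the call. Those that held were ANKRD1, AXL, CTGF, CYR61, DLC1, F3, LATS2, NT5E and THBS1.

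ANKRD1, a nuclear and sarcomeric ankyrin repeat protein, had 8.5 CPM with the empty vector and 100.5, 309 and 217 CPM in YAP5SA replicates 1, 2 and 3 (log2 fold change 4.62, SE 0.61, FDR = 0.00183). Its lowest YAP5SA library was more than 10 times the empty vector, itself above the 1.97 CPM of siCTRL. CTGF, a secreted matricellular protein, rose from 1.66 CPM to 9.38, 14.9 and 15.1 CPM (log2 fold change 2.98, SE 0.80, FDR = 0.0283), and no YAP5SA library overlapped the empty vector or siCTRL. Without replicate 3 its FDR was 0.0674. CYR61, a relative of CTGF, had 21.1 CPM with the empty vector and 202, 102 and 139 CPM with YAP5SA (log2 fold change 2.81, SE 0.42, FDR = 0.00331). It was lowest in replicate 2, the library with the most YAP1. THBS1, the adhesive glycoprotein thrombospondin 1, had 701 CPM and 2455, 3958 and 3298 CPM (log2 fold change 2.21, SE 0.32, FDR = 0.00312), high in replicate 2 and low in replicate 1 but above both controls in all 3. The receptor tyrosine kinase AXL had 29.8 CPM and 84.5, 139 and 113 CPM, and its log2 fold change was 1.91 (SE 0.25, FDR = 0.00178).

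Some targets did not rise. GGH, a folate hydrolase, fell by 0.55 on the log2 scale (SE 0.13, FDR = 0.0159) as reported but was not called with the GC trend removed. The abundant targets MYOF and IGFBP3 were not called: the membrane repair protein MYOF had 1845 CPM and 1638, 1646 and 1649.9 CPM, and the secreted IGFBP3 had 2249.9 CPM and 1882, 951 and 1589 CPM, with log2 fold changes of -0.17 (FDR = 0.528) and -0.61 (FDR = 0.134). IGFBP3 was lowest in replicate 2, and without replicate 1 it was called lower (FDR = 0.0294). RBMS3, an RNA-binding protein, had 0.0955 CPM with the empty vector, that is 3 counts, and 1.49, 1.06 and 0.714 CPM with YAP5SA, but the siCTRL library had 1.09 CPM and the call was lost with 2 controls (FDR = 0.334).

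**Figure D3:**
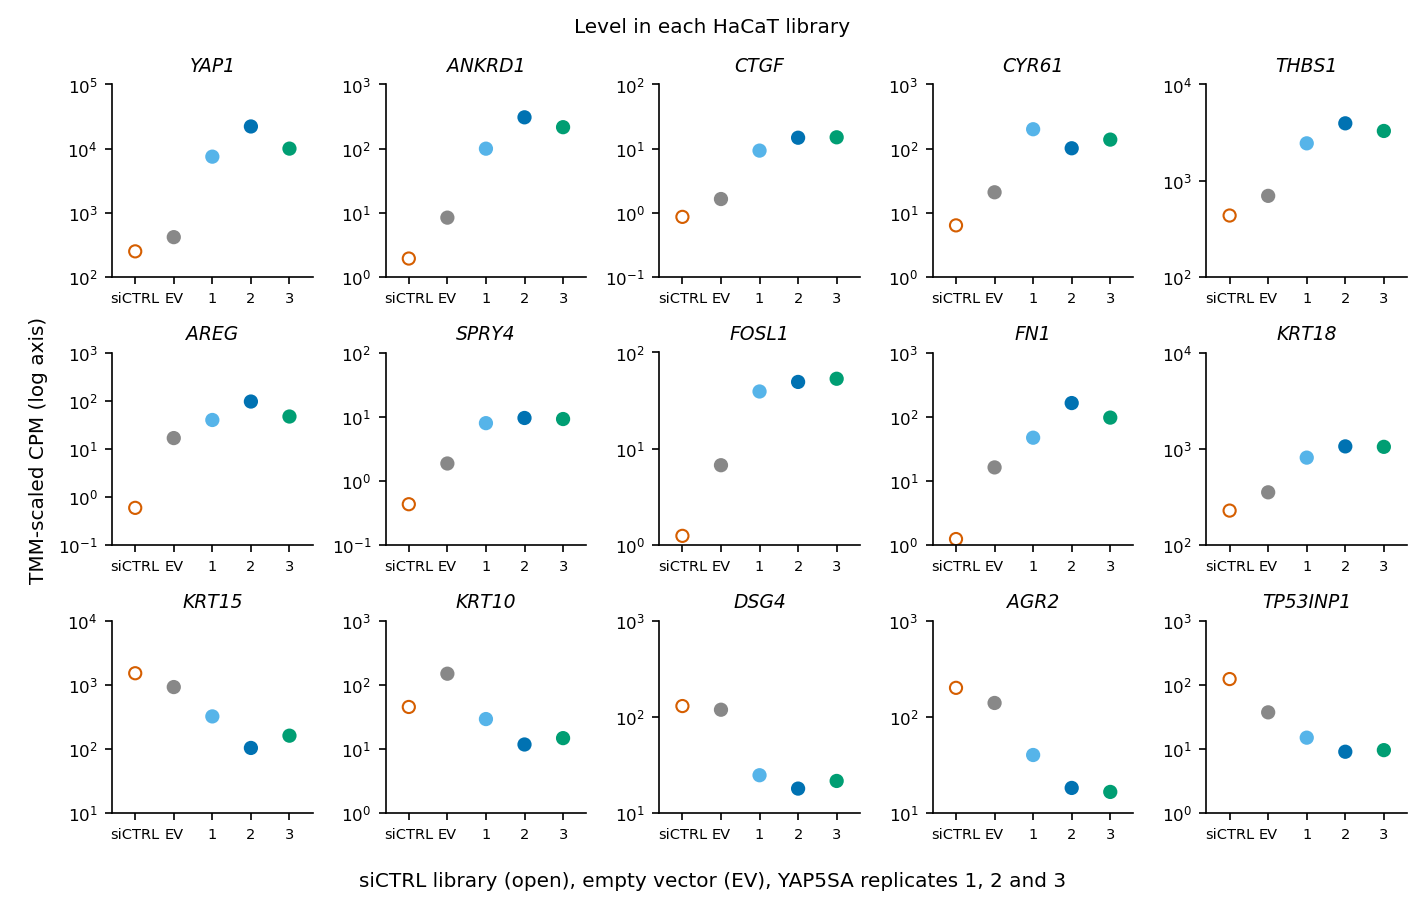
TMM-scaled CPM (y axis, log scale, a range of its own for each gene) of 15 genes in the siCTRL library (open), the empty vector library (grey) and YAP5SA replicates 1, 2 and 3 of HaCaT cells. YAP1 and 9 genes from ANKRD1 to KRT18 lie above both controls in all 3 YAP5SA libraries, and KRT15, KRT10, DSG4, AGR2 and TP53INP1 lie below both.

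The promoters of 3 targets that held are shown because they carry the motif that TEAD factors recognise. The single matched promoters of F3, LATS2 and NT5E, which also held, did not carry it, 1 of the 2 of AXL did, and CYR61 and DLC1 had no match. TEAD binds GGAATG, or its reverse complement CATTCC on the other strand, and AP-1 factors bind TGANTCA, which reads the same on both strands but for the middle base. The 250 bases before the start of each gene are written in the direction of the gene, from RefSeq on GRCh38.p14, with GGAATG in capitals. ANKRD1 lies on the minus strand at chr10:90921088-90921337, CTGF (CCN2 in RefSeq) on the minus strand at chr6:131951373-131951622, and THBS1 on the plus strand at chr15:39580829-39581078.
ANKRD1: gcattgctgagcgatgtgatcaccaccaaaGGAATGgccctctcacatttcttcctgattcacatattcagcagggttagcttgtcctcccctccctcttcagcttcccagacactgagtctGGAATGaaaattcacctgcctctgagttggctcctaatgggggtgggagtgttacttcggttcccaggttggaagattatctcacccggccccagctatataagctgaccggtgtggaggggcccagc
CTGF: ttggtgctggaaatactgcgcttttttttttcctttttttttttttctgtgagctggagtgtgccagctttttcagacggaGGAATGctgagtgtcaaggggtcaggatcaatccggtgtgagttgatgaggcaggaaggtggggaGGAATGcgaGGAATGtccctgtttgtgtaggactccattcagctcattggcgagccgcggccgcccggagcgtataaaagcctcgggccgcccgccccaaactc
THBS1: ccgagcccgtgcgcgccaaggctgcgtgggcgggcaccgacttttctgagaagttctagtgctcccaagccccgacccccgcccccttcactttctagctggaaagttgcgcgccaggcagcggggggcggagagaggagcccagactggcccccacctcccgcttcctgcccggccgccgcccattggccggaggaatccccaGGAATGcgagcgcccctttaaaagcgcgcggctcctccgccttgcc
ANKRD1 held GGAATG 2 times, 220 and 128 bases before its start, and TGANTCA 1 time. CTGF held GGAATG 3 times between 169 and 95 bases before its start, and THBS1 held it 1 time, 46 bases before. Of all 35116 RefSeq promoters of that length 11.9% held GGAATG on either strand and 6.57% held TGANTCA. Of the promoters matched to tested genes 10.1% held GGAATG, against 10.5% for genes called higher and 10.8% for genes called lower. For genes that held the share was 15.4% among those higher and 11.3% among those lower. A match of letters is a description and not a binding site. Only 26 of the 41 tested targets matched the promoter table, so no share is given for the list.

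The Hippo pathway itself showed 9 of 35 tested members called higher and 0 lower. Its median log2 fold change was 0.23, and 0.28 with the GC trend removed. The count includes YAP1, which the vector supplies. LATS2, a kinase that phosphorylates YAP, rose from 22.2 CPM to 38.5, 50.1 and 46 CPM (log2 fold change 1.01, SE 0.18, FDR = 0.00668), and the call held although siCTRL had 35.6 CPM. TEAD1 and the scaffold genes WWC1 and WWC2 also held, with log2 fold changes of 0.92 (FDR = 0.00908), 0.93 (FDR = 0.00611) and 0.40 (FDR = 0.0446). These genes are inhibitors or partners of YAP rather than its activators. AMOTL2, an angiomotin that binds YAP, had 89.5 CPM and 210.2, 207 and 241 CPM (log2 fold change 1.29, SE 0.21, FDR = 0.00467) but was not called with the GC trend removed (FDR = 0.086). NF2, the upstream tumour suppressor merlin, had 83.8 CPM and 130.1, 200.3 and 181 CPM (log2 fold change 1.03, SE 0.25, FDR = 0.0214) and was lost in the same way (FDR = 0.0575). VGLL1, a TEAD cofactor, had 4.33 CPM and 10.6, 11.3 and 13.4 CPM (log2 fold change 1.44, SE 0.30, FDR = 0.0108), yet the siCTRL library had 49.6 CPM and with 2 controls its log2 fold change turned to -1.19. The polarity gene CRB3 had 5.89 CPM and 6.66, 8.9 and 7.47 CPM, a log2 fold change of 0.38 (FDR = 0.389) that was not called and turned to -0.085 with the GC trend removed.

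AREG, EREG and TGFA, ligands of the EGF receptor, rose. Of 16 EGF ligands and ERBB receptors tested 3 were called higher and 1 lower, against 6.99% and 6.64% of all genes. All 4 held. AREG, which encodes amphiregulin, had 16.8 CPM with the empty vector and 39.9, 96.2 and 47.1 CPM with YAP5SA (log2 fold change 1.86, SE 0.55, FDR = 0.0389), highest in the library with the most YAP1. EREG, which encodes epiregulin, had 6.69 CPM and 11.8, 21.9 and 11.6 CPM (log2 fold change 1.17, SE 0.31, FDR = 0.0277), and TGFA had 89.2 CPM and 149.6, 213 and 172 CPM (log2 fold change 1.0, SE 0.19, FDR = 0.00804). All 3 ligands lay above the empty vector in every YAP5SA library, and AREG and EREG were at or under 0.601 CPM with siCTRL. NRG4, a ligand of ERBB4, went the other way, from 19.9 CPM to 9.61, 8.01 and 10.6 CPM (log2 fold change -1.08, SE 0.20, FDR = 0.00758). The ligands HBEGF, BTC and EPGN were not called, with log2 fold changes of 1.24 (FDR = 0.0685), -0.54 (FDR = 0.59) and 0.40 (FDR = 0.607). In a fit of the 8 HaCaT libraries alone the FDR of AREG and EREG was 0.0858 and 0.108. EGFR itself was not called and had 298 CPM and 419, 379.9 and 395 CPM, a log2 fold change of 0.42 (SE 0.18, FDR = 0.137), against 443 CPM with siCTRL.

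Feedback genes downstream of ERK and members of AP-1 were called higher beside these ligands. Of 24 ERK feedback and immediate response genes 9 were called higher and 0 lower, and the list median was 0.89, or 0.59 with the GC trend removed. The ERK inhibitor SPRY4 had 1.88 CPM and 7.97, 9.59 and 9.23 CPM (log2 fold change 2.25, SE 0.33, FDR = 0.00325), and the phosphatase DUSP4 had 17.6 CPM and 33.7, 63.4 and 50.8 CPM (log2 fold change 1.49, SE 0.30, FDR = 0.0101). Both held, as did PHLDA1 at a log2 fold change of 0.97 (FDR = 0.0114). SPRED2, another inhibitor of the pathway, had 8.28 CPM and 19.9, 15.8 and 19.7 CPM (log2 fold change 1.16, SE 0.24, FDR = 0.0108), about the 20.05 CPM of siCTRL, and was not called with 2 controls. MYC had 117 CPM and 168, 157 and 181 CPM, a log2 fold change of 0.53 (SE 0.21, FDR = 0.105). Of 12 AP-1 factors 5 were called higher and 0 lower. FOSL1, the FOS family member FRA-1, had 6.78 CPM and 39.4, 49.5 and 53.4 CPM (log2 fold change 2.81, SE 0.41, FDR = 0.00325), well above the 1.26 CPM of siCTRL. MAFG, a small MAF protein, had 15.3 CPM and 31.6, 42 and 39.8 CPM (log2 fold change 1.3, SE 0.22, FDR = 0.00559), and these 2 held. JUN was not called (16.8 CPM and 18.5, 33 and 26.8 CPM, log2 fold change 0.63, FDR = 0.118), although it was without replicate 1 (FDR = 0.0123).

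Among the integrins, the receptors for the basement membrane, 5 of 17 tested subunits were called higher and 0 lower, with a list median of 0 that became 0.22 with the GC trend removed. ITGB2, a subunit best known from leukocytes, had 0.159 CPM with the empty vector, which is 5 counts, and 11.6, 7.67 and 13.4 CPM with YAP5SA (log2 fold change 6.06, SE 0.91, FDR = 0.00331). Of the immune markers given above, CD68 and LYZ were also called higher, while PTPRC had 8 counts with the empty vector and 4, 0 and 4 with YAP5SA, and their part in the ITGB2 value was not tested. ITGB2 held, although siCTRL had 2.29 CPM and with 2 controls the log2 fold change was 3.23. The laminin-binding subunit ITGA3 had 120.4 CPM and 234, 244 and 236 CPM (log2 fold change 0.98, SE 0.18, FDR = 0.00675), and the hemidesmosome subunit ITGB4 had 79.2 CPM and 183, 149.8 and 222 CPM (log2 fold change 1.22, SE 0.25, FDR = 0.0101). Neither held, and siCTRL had 232 CPM and 305 CPM, and with 2 controls ITGB4 stood at -0.054. The fibronectin receptor subunit ITGA5 had 86.2 CPM and 153, 202 and 167 CPM (log2 fold change 1.01, SE 0.18, FDR = 0.00649) and missed the threshold with the GC trend removed (FDR = 0.0519). ITGB5, the other subunit called higher, had a log2 fold change of 0.44 (FDR = 0.0396) and did not hold. ITGA6 and ITGB1, which pair with ITGB4 and with several alpha subunits, were not called. ITGA6 had 2119 CPM and 1659, 1644 and 1442 CPM (log2 fold change -0.42, FDR = 0.116), and ITGB1 had 1138 CPM and 1059.8, 1150.3 and 959 CPM (log2 fold change -0.11, FDR = 0.664), with signs that turned to 0.19 with 2 controls and 0.14 with the GC trend removed.

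The hemidesmosome and laminin-332 genes, which anchor basal keratinocytes, had 3 of 10 members called higher and 1 lower, and 0 of them held. LAMB3 and LAMA3 encode laminin chains of the basement membrane. LAMB3 had 388 CPM and 613, 931 and 686 CPM (log2 fold change 0.94, SE 0.22, FDR = 0.0186), and with the GC trend removed its FDR was 0.185. LAMA3 had 804 CPM and 1104, 2353 and 1385 CPM (log2 fold change 1.0, FDR = 0.0597), and both were highest in replicate 2. DST, the cytolinker dystonin, had 975 CPM and 661, 651 and 602 CPM (log2 fold change -0.61, SE 0.18, FDR = 0.0359) and lost its call without replicate 3 (FDR = 0.0849).

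Of 33 extracellular matrix genes tested 7 were called higher and 2 lower, against 6.99% and 6.64% of all genes, so the lower count is near that share. Of these 6 and 2 held. The list median was 0.59, and 0.36 with the GC trend removed. FN1, which encodes fibronectin, had 16.3 CPM with the empty vector and 47.3, 164 and 97.2 CPM with YAP5SA (log2 fold change 2.65, SE 0.60, FDR = 0.0146), in the order of the YAP1 level, against 1.26 CPM with siCTRL. The basement membrane linker NID2 had 5.64 CPM and 23.7, 25.6 and 26.1 CPM (log2 fold change 2.15, SE 0.45, FDR = 0.0112), and the collagen IV chain COL4A1 had 24 CPM and 47.2, 44.3 and 61 CPM (log2 fold change 1.08, SE 0.22, FDR = 0.0101). The fibril-associated collagen COL12A1 had 64.2 CPM and 127, 221 and 189 CPM (log2 fold change 1.48, SE 0.42, FDR = 0.0345) but was not called without replicate 2 (FDR = 0.0512) or 3 (FDR = 0.0684). LAMB1 and THBS1 also held. The members that fell and held were the collagen chain COL4A5 (log2 fold change -0.76, FDR = 0.0227) and the matrilin MATN2 (-0.90, FDR = 0.0253).

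Of 19 proteases and their regulators 3 were called higher and 2 lower, too few to read against the 6.99% and 6.64% of all genes. The 2 that fell were matrix metalloproteases. MMP12, the macrophage elastase, had 8.31 CPM with the empty vector and 1.18, 0.545 and 0.714 CPM with YAP5SA (log2 fold change -3.34, SE 0.24, FDR = 0.000333). MMP13, a collagenase, had 92.7 CPM and 21.6, 4.85 and 6.38 CPM (log2 fold change -3.08, SE 0.72, FDR = 0.0173). Both were also higher with siCTRL, at 76.4 CPM and 39.4 CPM, than in any YAP5SA library, and both held, while MMP13 missed the threshold without replicate 3 (FDR = 0.0506). The membrane metalloprotease ADAM19 had 33.2 CPM and 92.4, 177 and 129 CPM (log2 fold change 2.0, SE 0.30, FDR = 0.00329) and held, as did the inhibitor TIMP1 at 1.0 (FDR = 0.0106). PLAUR, the urokinase receptor, had 20.7 CPM and 33.7, 91 and 48 CPM (log2 fold change 1.47, SE 0.43, FDR = 0.0368), with an FDR of 0.109 once the GC trend was removed.

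Genes of the actin cytoskeleton and focal adhesions were called higher 14 times and lower 1 time of 52 tested, and 40 of the 52 lay above 0. With the GC trend removed 7 were called higher and 0 lower, and the median log2 fold change went from 0.45 to 0.39. ACTN1, the actin cross-linker alpha-actinin 1, had 205 CPM and 468, 547 and 547 CPM (log2 fold change 1.35, SE 0.16, FDR = 0.00102), against 112 CPM with siCTRL, and held, as did the calponin CNN2 at 1.08 (FDR = 0.00437). ZYX, which encodes the focal adhesion protein zyxin, had 3.85 CPM and 13.4, 12.6 and 21.5 CPM (log2 fold change 2.04, SE 0.35, FDR = 0.00576), but siCTRL had 18 CPM. FLNA, the filamin that joins actin to membrane proteins, had 335 CPM and 660.1, 932 and 1129.8 CPM (log2 fold change 1.44, SE 0.40, FDR = 0.032), and its FDR was 0.152 with the GC trend removed and 0.0709 without replicate 3.

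Keratins build the intermediate filaments of epithelia and differ between layers. Of 16 basal and stress keratins tested 5 were called higher and 1 lower, and the 3 that held were the simple epithelial pair KRT8 and KRT18, which rose, and the basal keratin KRT15, which fell. KRT18 had 355 CPM with the empty vector and 813, 1063 and 1052 CPM with YAP5SA (log2 fold change 1.46, SE 0.20, FDR = 0.00216), and its partner KRT8 had 433 CPM and 920.0, 1364 and 1294 CPM (log2 fold change 1.46, SE 0.21, FDR = 0.00265). Both were lower with siCTRL than with the empty vector, at 229.6 CPM and 236 CPM. KRT15 had 922 CPM and 323, 104 and 162 CPM (log2 fold change -2.23, SE 0.37, FDR = 0.00516), lowest in the library with the most YAP1, and 1513 CPM with siCTRL. KRT7 and KRT80 were called higher (1.17, SE 0.24, FDR = 0.0102, and 1.25, SE 0.19, FDR = 0.00329), but siCTRL had 608 CPM of KRT7 and 78.8 CPM of KRT80 against 732, 732 and 872 CPM and 59.8, 61.3 and 74.1 CPM with YAP5SA, and neither was called with 2 controls. KRT5 and KRT14, the pair that defines the basal layer, were not called. KRT5 had 2598 CPM and 2299, 919 and 1372 CPM (log2 fold change -0.76, FDR = 0.168), called lower without replicate 1 (FDR = 0.0118), and KRT14 had 763 CPM and 1542, 846 and 951 CPM (log2 fold change 0.54, FDR = 0.256).

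Of 26 tested genes of keratinocyte differentiation 1 was called higher and 2 lower, and 1 held. These are too few to read against the 6.99% and 6.64% of all genes. KRT10, the keratin of the first differentiated layer, had 149 CPM with the empty vector and 29.3, 11.8 and 14.8 CPM with YAP5SA (log2 fold change -2.99, SE 0.31, FDR = 0.000548), and 45.2 CPM with siCTRL, above every YAP5SA library. Filaggrin, FLG, a protein of the cornified layer, was higher, from 108 CPM to 209, 363 and 317 CPM (log2 fold change 1.46, SE 0.37, FDR = 0.0228), with an FDR of 0.0508 with the GC trend removed and 0.0501 without replicate 3. The alarmin S100A9 had 7.32 CPM and 3.05, 3.13 and 2.35 CPM (log2 fold change -1.37, SE 0.38, FDR = 0.0308) but siCTRL was at 2.29 CPM, and without replicate 3 its FDR was 0.0779. Involucrin, IVL, a precursor of the cornified envelope, had 175 CPM and 139, 25.4 and 52.2 CPM, a log2 fold change of -1.27 (SE 0.52, FDR = 0.116) that was called without replicate 1 (FDR = 0.000526). The list median was -0.05, or -0.33 with the GC trend removed.

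Among 28 lineage factors 1 was called higher and 3 lower, too few to read against the 6.99% and 6.64% of all genes. MAF, a transcription factor of epidermal differentiation, had 4.33 CPM and 1.38, 0.545 and 0.765 CPM (log2 fold change -2.26, SE 0.45, FDR = 0.0101), and JAG1, a NOTCH ligand, had 284 CPM and 216, 173 and 183 CPM (log2 fold change -0.57, SE 0.15, FDR = 0.0254), with every YAP5SA library below siCTRL (2.68 CPM and 362 CPM). Both held, JAG1 with an FDR of 0.0626 without replicate 3. KLF5 had 219.8 CPM and 167, 98.3 and 135 CPM (log2 fold change -0.72, SE 0.20, FDR = 0.0318), with an FDR of 0.146 with the GC trend removed and 0.0649 without replicate 3. RUNX1 had 28.3 CPM and 57.6, 61 and 63.6 CPM (log2 fold change 1.1, SE 0.28, FDR = 0.0226), at the 61.3 CPM of siCTRL. TP63, the master regulator of the basal layer, had 339 CPM and 287, 178 and 212 CPM, a log2 fold change of -0.59 (SE 0.21, FDR = 0.0746), and an FDR of 0.00649 without replicate 1.

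Of 31 desmosomal and tight junction genes tested 7 were called lower and 1 higher, and the list median was -0.18. With the GC trend removed 3 were called lower and 2 higher, and the median was -0.12. The tight junction adhesion molecule F11R (log2 fold change -0.65, FDR = 0.0124) was the member of this list that held. DSG4, a desmosomal cadherin of the upper layers that was named for the size of its fall, had 119 CPM with the empty vector, 129.7 CPM with siCTRL and 24.9, 18.1 and 21.7 CPM with YAP5SA (log2 fold change -2.46, SE 0.16, FDR = 0.000333), and held. Of the other desmogleins, DSG3 had 1159.9 CPM and 566, 456 and 476 CPM (log2 fold change -1.22, SE 0.25, FDR = 0.0112) but 306 CPM with siCTRL, and DSG2 had 937 CPM and 676, 348 and 544 CPM (log2 fold change -0.84, SE 0.24, FDR = 0.0357) with an FDR of 0.16 with the GC trend removed. The claudin CLDN8 had 76.4 CPM and 33.2, 8.61 and 6.2 CPM (log2 fold change -2.25, SE 0.66, FDR = 0.039), lost with the GC trend removed (FDR = 0.0878) and without replicate 2 (FDR = 0.066) or 3 (FDR = 0.0839). CLDN4 rose from 40.5 CPM to 62.9, 88.7 and 78.3 CPM (log2 fold change 0.92, SE 0.18, FDR = 0.00874), though siCTRL had 66.8 CPM. PERP, a desmosomal membrane protein, had 738 CPM and 389, 527 and 416 CPM (log2 fold change -0.73, SE 0.19, FDR = 0.0238) and lost the call in both other fits, and PERP and DSG2 also lost it without replicate 3 (FDR = 0.0606 and 0.0656).

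**Figure D4:**
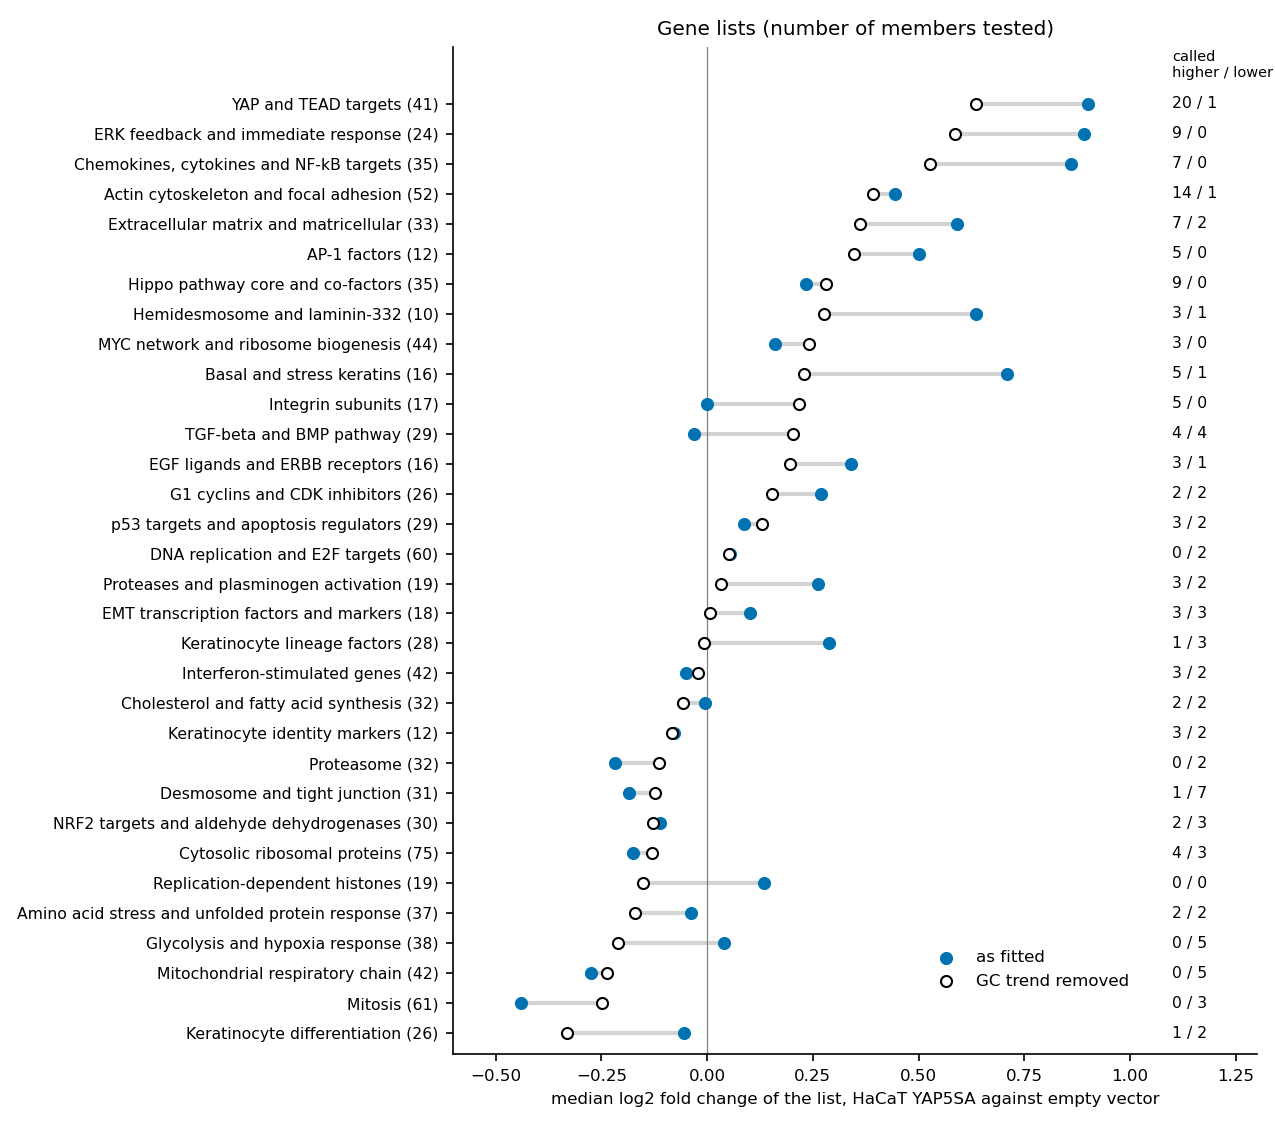
Median fitted log2 fold change of YAP5SA against empty vector (x axis) for each gene list with at least 10 tested members (y axis, number tested in parentheses), as fitted (blue) and with the GC trend removed (open), with the number of members called higher and lower at the right. The YAP and TEAD targets had the highest median in both, 0.90 and 0.64, and mitosis genes had the lowest as fitted, -0.44.

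Cytokines and their NF-kB companions were called higher 7 times and lower 0 times of 35 tested, with a median of 0.86, or 0.53 with the GC trend removed. The inflammatory cytokine IL1B had 18.2 CPM and 48.7, 45.1 and 30.6 CPM (log2 fold change 1.18, SE 0.29, FDR = 0.0212), and PTGS2, the inducible cyclooxygenase, had 15.9 CPM and 37.1, 56.5 and 32.1 CPM (log2 fold change 1.4, SE 0.39, FDR = 0.0318). Both held and were lower with siCTRL, at 5.19 CPM and 5.68 CPM. LIF had 11.5 CPM and 24.1, 45.7 and 26.7 CPM (log2 fold change 1.48, SE 0.32, FDR = 0.0122), with an FDR of 0.0788 with the GC trend removed. Of 42 interferon-stimulated genes 3 were called higher and 2 lower, against 6.99% and 6.64% of all genes. Their median was -0.05, and 0 held. The summed immune and endothelial markers, given above, were also higher with YAP5SA, and their part in the cytokine values was not tested.

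The TGF-beta and BMP pathway had 4 of 29 members called higher and 4 lower, against 6.99% and 6.64% of all genes, and 2 higher and 5 lower with the GC trend removed. TGFB2, a ligand, had 6.56 CPM and 26.2, 24.6 and 31.5 CPM (log2 fold change 2.06, SE 0.24, FDR = 0.00102), although siCTRL had 15.8 CPM and with 2 controls the FDR was 0.128. The ID proteins, which dimerise with and block basic helix-loop-helix factors, include 2 of the 4 called lower. ID4 had 50.9 CPM and 21.2, 9.88 and 19.4 CPM (log2 fold change -1.6, SE 0.31, FDR = 0.00914) and held. ID2 had 121 CPM and 46.5, 45.7 and 50.7 CPM (log2 fold change -1.34, SE 0.18, FDR = 0.00178) against 36.3 CPM with siCTRL and did not hold, and ID1 had 357 CPM and 277, 110.2 and 183 CPM, a log2 fold change of -0.91 (FDR = 0.0898), called with the GC trend removed (FDR = 0.0331) and without replicate 1 (FDR = 0.00805). Among 18 epithelial-mesenchymal transition genes 3 were called higher and 3 lower, against the same 6.99% and 6.64% of all genes. CDH2, which encodes N-cadherin, had 20.1 CPM and 43.3, 91.6 and 71 CPM (log2 fold change 1.77, SE 0.45, FDR = 0.0338), with an FDR of 0.0706 with 2 controls and 0.0721 without replicate 3. The E-cadherin gene CDH1 had 485 CPM and 488, 456 and 521 CPM, a log2 fold change of 0.0081 (SE 0.17, FDR = 0.982). The epithelial transcription factor GRHL1 fell, from 33.2 CPM to 22.1, 18.3 and 18.6 CPM (log2 fold change -0.75, SE 0.16, FDR = 0.0123), and held.

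Cell cycle genes were not called higher as groups, where 6.99% of all genes were called higher and 6.64% lower. Of 60 DNA replication and E2F target genes 0 were called higher and 2 lower by edgeR, with a median of 0.05, and of 61 mitosis genes 0 were called higher and 3 lower, with a median of -0.44 and 51 of 61 below 0. The mitosis genes had a median GC content of 43.3%, and with the GC trend removed their median was -0.25 with 0 called. The kinetochore gene NDC80 had 78.5 CPM and 41.3, 42.9 and 40.5 CPM (log2 fold change -0.92, SE 0.20, FDR = 0.0118) but 10.9 CPM with siCTRL. PCNA, the replication clamp, had 638 CPM and 483, 559 and 593 CPM (log2 fold change -0.23, FDR = 0.456). CCNE2, a cyclin of the entry into S phase, had 67.4 CPM and 46.6, 90.8 and 90.6 CPM (0.17, FDR = 0.789), and E2F1 had 14.2 CPM and 20.7, 13.4 and 27.2 CPM (0.52, FDR = 0.429). None of these 3 was called in any of the 3 fits, and E2F1 was at -0.054 with the GC trend removed and PCNA at 0.54 with 2 controls.

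Of 26 regulators of the G1 phase 2 were called higher and 2 lower, both near the 6.99% and 6.64% of all genes. The 2 that fell were CDK inhibitors, and both held: CDKN1B, or p27, had 67.1 CPM and 42.1, 39.1 and 41.3 CPM (log2 fold change -0.72, SE 0.13, FDR = 0.00638), and CDKN2B, or p15, had 42 CPM and 24.5, 17.5 and 15.7 CPM (log2 fold change -1.13, SE 0.24, FDR = 0.0192), against 61.5 CPM and 200.1 CPM with siCTRL. E2F3 rose from 27.3 CPM to 38.1, 49.9 and 47.9 CPM (log2 fold change 0.73, SE 0.21, FDR = 0.0341) and held, though not without replicate 2 (FDR = 0.0507) or 3 (FDR = 0.0743). The cyclin CCND2 had 49.6 CPM and 94.6, 117 and 91.7 CPM (log2 fold change 1.03, SE 0.22, FDR = 0.0115), but siCTRL had 129.7 CPM. TP53INP1, a p53 target with a role in cell death and autophagy, had 37.3 CPM and 15.1, 9.1 and 9.64 CPM (log2 fold change -1.72, SE 0.21, FDR = 0.00131), with 123 CPM with siCTRL, and held.

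Growth and metabolism were represented by several lists, read against the 6.99% of all genes called higher and the 6.64% called lower. Of 44 MYC network and ribosome biogenesis genes 3 were called higher and 0 lower, and 0 held. The mTORC1 subunit RPTOR had 14.4 CPM and 23.4, 23.3 and 30.5 CPM (log2 fold change 0.84, FDR = 0.102). ODC1, the rate-limiting enzyme of polyamine synthesis, had 60.7 CPM and 59, 137 and 97.3 CPM (0.69, FDR = 0.353), below the empty vector in replicate 1 and above it in the other 2. Its regulator AZIN2 had 1.78 CPM and 2.56, 0.66 and 1.3 CPM (-0.24, FDR = 0.83), with libraries on both sides of the control. None of these 3 was called. Of 38 glycolysis and hypoxia genes 0 were called higher by edgeR and 5 lower, among them DDIT4, an inhibitor of mTORC1, which had 375 CPM and 244, 129 and 198 CPM (log2 fold change -0.98, SE 0.23, FDR = 0.0184) and held. SCD, the stearoyl-CoA desaturase, had 3519.9 CPM and 1984, 674 and 1462 CPM (log2 fold change -1.36, SE 0.38, FDR = 0.0337), with an FDR of 0.0676 with the GC trend removed and 0.0645 without replicate 3. Of 30 NRF2 targets and aldehyde dehydrogenases 2 were called higher and 3 lower. ALDH1A1 had 3.09 CPM and 0.487, 0.0574 and 0.536 CPM (log2 fold change -3.06, SE 0.49, FDR = 0.0049), but siCTRL was at 0.109 CPM, while the aldehyde dehydrogenases ALDH3A1 (log2 fold change -1.11, FDR = 0.0467) and ALDH3A2 (-0.87, FDR = 0.0186) held. The counts of the remaining lists stand against the same shares. Of 75 cytosolic ribosomal proteins 4 were called higher and 3 lower. Of 42 respiratory chain genes 0 were called higher by edgeR and 5 lower, and of 32 proteasome genes 0 and 2. Of 32 cholesterol and fatty acid synthesis genes 2 were called higher and 2 lower. Of 37 amino acid stress and unfolded protein genes 2 were called higher and 2 lower. Of 29 p53 targets and apoptosis regulators 3 were called higher and 2 lower. The medians of these lists lay between -0.27 and 0.09. Among their members ACLY, the citrate lyase that feeds lipid synthesis (log2 fold change 0.74, FDR = 0.0142), the kinase PLK2 (0.70, FDR = 0.0212) and the ribosomal protein RPL22 (-0.62, FDR = 0.0141) held. Of 19 replication-dependent histone genes 0 were called by edgeR.

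Several of the largest changes fell outside these lists. L1CAM, a neural adhesion molecule, had 0.541 CPM with the empty vector, 0 with siCTRL and 10.1, 8.12 and 18.6 CPM with YAP5SA (log2 fold change 4.49, SE 0.84, FDR = 0.00777), and fell under the minimum logCPM without replicate 3 (FDR = 0.0209). PDCD1LG2, the PD-1 ligand PD-L2, had 0.637 CPM and 4.33, 18.7 and 9.13 CPM (log2 fold change 4.06, SE 0.76, FDR = 0.00758), and fell under that minimum without replicate 2 (FDR = 0.00483). Both held. AGR2, a secretory pathway disulfide isomerase, fell from 139.6 CPM to 40.3, 18.4 and 16.7 CPM (log2 fold change -2.47, SE 0.39, FDR = 0.00438), and OLFM4, a secreted glycoprotein, from 2.55 CPM to 0.564, 0.258 and 0.204 CPM (log2 fold change -2.87, SE 0.40, FDR = 0.00348). Both were higher with siCTRL, at 200.4 CPM and 66.4 CPM, and both held. GDPD2, SEMA6D and NAALADL2, also among the 12 largest falls, had siCTRL levels of 0.273 CPM, 132 CPM and 15.5 CPM against 1.75 CPM, 13.3 CPM and 3.66 CPM with the empty vector, and of these NAALADL2 held, at a log2 fold change of -2.46 (FDR = 0.0122).

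Further genes that rose and held are given here because of the size of their change, and were picked after their values were seen. CPA4, a secreted carboxypeptidase, had 2.42 CPM with the empty vector, 0.164 CPM with siCTRL and 17.1, 32.1 and 28.4 CPM with YAP5SA (log2 fold change 3.42, SE 0.44, FDR = 0.00178). TNS4, a tensin of focal adhesions, had 14.2 CPM and 56.5, 78.1 and 90.5 CPM (log2 fold change 2.4, SE 0.43, FDR = 0.00663), and OLR1, a scavenger receptor for oxidised LDL, had 48.3 CPM and 169, 216 and 193 CPM (log2 fold change 2.0, SE 0.28, FDR = 0.00229). The protease inhibitor TFPI2 had 16.2 CPM and 59.6, 149 and 72.3 CPM (log2 fold change 2.53, SE 0.52, FDR = 0.0124), highest in the library with the most YAP1, and the membrane-anchored semaphorin SEMA7A had 2.71 CPM and 11, 14.5 and 10.9 CPM (log2 fold change 2.16, SE 0.30, FDR = 0.00229). In each of these 5 genes all 3 YAP5SA libraries lay above both controls.

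Of the 12 largest fitted rises 7 were humanin-like MTRNR2L genes, and for these and some other large values the siCTRL library was far from the empty vector. The humanin-like MTRNR2L8, whose sequence is nearly that of a mitochondrial rRNA and whose reads are therefore uncertain, had 163 CPM with the empty vector and 2881, 7987 and 1028 CPM with YAP5SA (log2 fold change 4.6, SE 0.97, FDR = 0.0113), but 14109 CPM with siCTRL, and with 2 controls its log2 fold change was -0.85. SNRPN, whose locus holds overlapping transcripts, had 0 counts with the empty vector and 11.1, 6.32 and 6.71 CPM with YAP5SA. Against the 3 counts that a count of 0 allows, which covers counting error only, its lowest YAP5SA library was at least 66.1-fold higher, while siCTRL had 8.36 CPM and the gene was not called with 2 controls.

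The 3 YAP5SA libraries also differed from each other, and by the counts that follow replicate 2, with the most YAP1, lay farthest from replicate 1. Of 12240 genes 610 differed by more than 1 on the log2(CPM + 1) scale between replicates 1 and 2, 241 between replicates 2 and 3, and 174 between replicates 1 and 3. Replicate 1, with the least YAP1, was also nearest to the empty vector, with 610 such genes against 1163 for replicate 2 and 1050 for replicate 3. Replicate 2 also had fewer detected genes, 15948 against 17674 in replicate 1 and 17665 in replicate 3, near the 16029 of the empty vector. The part of this in the differences between replicates was not tested. The YAP1 order from lowest to highest is replicate 1, 3, 2. These 3 libraries are too few for a correlation, so the orders are given as counts with no test.

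Among all genes with a logCPM above 1 and YAP1 left out, 24.3% had the YAP1 order and 25.4% its reverse. The genes called higher showed the YAP1 order in 271 of 1025 cases (26.4%), near the share in all genes. The genes called lower showed the reverse order in 429 of 975 cases (44.0%), and those lower by at least 1 in 106 of 176 (60.2%). Since the same 3 libraries entered the calls, these shares describe the called genes and do not test them. The median log2 difference from the empty vector among genes lower by at least 1 was -0.91 in replicate 1, -1.44 in replicate 2 and -1.28 in replicate 3, and among genes higher by at least 1 it was 1.04, 1.08 and 1.21. Replicate 2 also had the flattest GC trend. With the trend removed 189 of 409 genes called higher (46.2%) had the YAP1 order against 32.2% of all genes, and 175 of 412 called lower (42.5%) the reverse order against 20.9%. The genes that held, YAP1 left out, were counted on TMM-scaled CPM without the trend removed. Of those that rose 84 of 171 (49.1%) had the YAP1 order, against 24.3% of all genes on that scale. Of those that fell 105 of 193 (54.4%) had the reverse, against 25.4%.

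**Figure D5:**
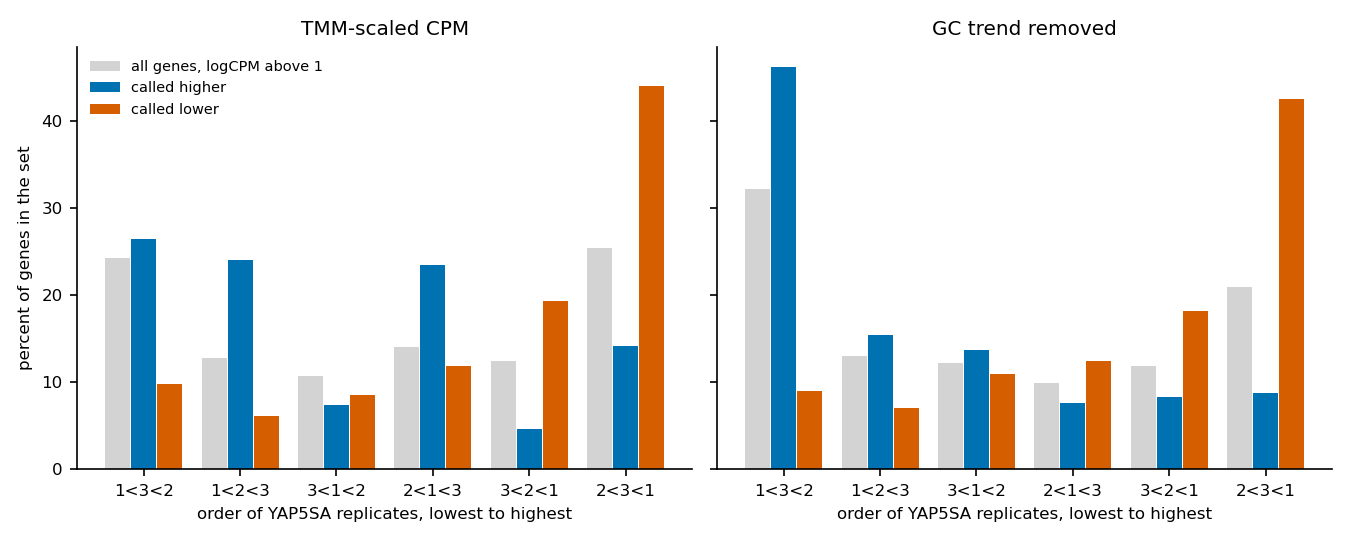
Share of genes (y axis, percent) by the order of their level in YAP5SA replicates 1, 2 and 3 (x axis, lowest to highest), for all genes with a logCPM above 1 (grey), genes called higher (blue) and genes called lower (orange), on TMM-scaled CPM (left) and with the GC trend removed (right). The order 1<3<2 is that of YAP1 and 2<3<1 its reverse, which 44.0% of genes called lower had on the left and 42.5% on the right.

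Some of the established targets had the order of the YAP1 level. Of the 20 called higher 9 had the YAP1 order and 3 its reverse, against 26.4% and 14.2% of all genes called higher. Their median ratio of replicate 2 to replicate 1 was 1.17, against 2.95 for YAP1 itself. Of the 41 tested targets 41.5% had the YAP1 order. In the other lists of at least 10 tested members this share went from 7.14% of lineage factors to 75% of proteasome genes. ANKRD1 and THBS1 were in the order of YAP1, CTGF was nearly level between replicates 2 and 3, and CYR61 had the reverse order. Outside the target list, the called genes in that order with the widest span between replicates 1 and 2, on the log2(CPM + 1) scale and at a mean of more than 5 CPM, included PDCD1LG2 and FN1, given above, and the following 4. SH2D5, an adaptor protein, had 1.66 CPM with the empty vector and 5.05, 23 and 9.74 CPM with YAP5SA (log2 fold change 2.92, SE 0.84, FDR = 0.0357). The metalloprotease ADAMTS6 had 3.95 CPM and 7.51, 32.6 and 16 CPM (log2 fold change 2.24, SE 0.65, FDR = 0.0371), the neuron navigator NAV3 had 13.3 CPM and 31.3, 119 and 52.4 CPM (log2 fold change 2.35, SE 0.72, FDR = 0.0456), and the collagen-binding receptor ANTXR2 had 14.1 CPM and 28.8, 108 and 47.9 CPM (log2 fold change 2.13, SE 0.56, FDR = 0.027). Without replicate 3 the FDR of SH2D5, ADAMTS6 and NAV3 was 0.0515, 0.0571 and 0.0648, that of NAV3 without replicate 2 was 0.0664, and ADAMTS6 and ANTXR2 held.

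In the reverse order the 6 genes of widest span by the same measure included MMP13 and KRT15, given above, and PDCD4, DAPK2 and PALMD. PDCD4, an inhibitor of translation, had 378 CPM with the empty vector and 206, 66.2 and 122 CPM with YAP5SA (log2 fold change -1.52, SE 0.38, FDR = 0.0215). The death-associated kinase DAPK2 had 34 CPM and 19, 4.94 and 9.36 CPM (log2 fold change -1.61, SE 0.48, FDR = 0.0402) and held. PALMD, a membrane-associated cytosolic protein, had 75.9 CPM and 43.7, 12.8 and 14.7 CPM (log2 fold change -1.68, SE 0.53, FDR = 0.0493). All 3 were lowest in replicate 2, and without replicate 3 their FDR was 0.0542, 0.0983 and 0.12, with 0.0789 for PALMD without replicate 2.

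The comparison of siYAP with siCTRL in the same line uses other libraries than that of YAP5SA with the empty vector. Both come from the same fit, in which all 16 libraries set the filter and the spread. The fit with 2 controls, and so which genes held, also set the siCTRL library beside the empty vector. That library is also the control of the siYAP libraries. In them YAP1 was down to 23.2, 21.6 and 21.8 CPM, from 254 CPM in the siCTRL library (log2 fold change -3.52, FDR = 0.000894). With siYAP against siCTRL 348 genes (2.37%) were called higher and 484 (3.3%) lower. Of the 1026 genes higher with YAP5SA 49 (4.78%) were lower with siYAP, which is 10.1% of the latter, and 27 (2.63%) were higher with both. Of the 975 genes lower with YAP5SA 50 (5.13%) were higher with siYAP, which is 14.4% of those, and 45 (4.62%) were lower with both. Among all tested genes the shares were 3.3% lower and 2.37% higher with siYAP. The 4.78% and 5.13% in the opposite direction lay above these, as did the 4.62% and 2.63% in the same direction. Both sets of calls needed a logCPM above 1, which not all tested genes had. The overlap was not tested. Of the 41 tested targets 4 were called lower with siYAP and 0 higher, with a median of -0.09. DSG4 had a siYAP log2 fold change of 1.65 (FDR = 0.00171) and MMP12 one of 1.56 (FDR = 0.00325), both opposite to YAP5SA. ITGB2 and AMOTL2 fell with siYAP, at -3.66 (FDR = 0.0101) and -1.03 (FDR = 0.00561), and MAF rose at 2.12 (FDR = 0.0377). ANKRD1, CTGF and CYR61 had siYAP log2 fold changes of -0.66, -0.28 and -0.57 (FDR = 0.667, 0.899 and 0.497) and were not called.

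The same vector in A431 cells called 0 of 14673 genes (0%) with edgeR's quasi-likelihood test, with 828 at an unadjusted p under 0.05, and 3 genes with DESeq2 and 3 with edgeR's likelihood ratio test. That HaCaT genes passed and A431 genes did not is no test of a difference. Tested directly, the YAP5SA effect differed between the lines for 13 genes (0.0886%), 10 with a higher value in HaCaT cells and 3 with a lower one, and for 3280 at an unadjusted p under 0.05. Whether the replicate numbers pair the YAP5SA libraries of the 2 lines is not settled. With the number as a block the count was 21. It was 610, 497 and 12 without HaCaT YAP5SA replicate 1, 2 and 3. SERINC2, a serine incorporator, differed by 2.3 on the log2 scale (SE 0.26, FDR = 0.0105). It had 7.96 CPM with the empty vector and 35.5, 34.5 and 43.2 CPM with YAP5SA in HaCaT cells, and 115 CPM and 112, 119 and 100.3 CPM in A431 cells. The siCTRL library of HaCaT cells had 32 CPM, close to the lowest YAP5SA library. ANKRD1 and CTGF had log2 fold changes of 4.16 and 4.53 in A431 cells that were not called there, and the difference between the lines was 0.46 (FDR = 0.97) and -1.55 (FDR = 0.8).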

How the data were processed

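RNA-seq libraries were made from total RNA of HaCaT and A431 cells, 16 in all, of which the 3 YAP5SA and the single empty vector library of HaCaT cells are compared here. The authors sequenced 100 bp reads, trimmed them to 75 bp, aligned them to the RefSeq gene models (hg19 per the submitters' processing notes) with bowtie2 and deposited expected counts per gene from RSEM (1.2.11 per those notes), 1 column a library. Strand use in the counting is not given in the sources used here, so genes that overlap or have near-identical copies are uncertain.

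The estimated counts were rounded. A mean count over 10 across all 16 libraries was required, which left 14673 of 26229 genes. These were tested with edgeR 4.0.16 (R 4.3.3), using TMM factors and the quasi-likelihood test over all 16 libraries in 8 groups. That left 8 residual degrees of freedom for the spread. FDR is the Benjamini-Hochberg adjusted p over all tested genes, and calls needed an FDR under 0.05 and a logCPM above 1. SEs were derived from each log2 fold change and the F statistic of its test. Transcript GC content came from GENCODE transcripts matched by symbol, for 96.4% of tested genes, and its trend was removed in each library as a loess offset, an alternative chosen after seeing the data. Promoters were read from a RefSeq table of GRCh38.p14. Code was tested on simulated data. Totals of 34382933 to 39980642 make 3 counts worth 0.075 to 0.0873 CPM before TMM scaling, which covers counting error only. In 28 rows the symbol had been turned into a date, and these were not named.

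The members and gene lists were chosen with earlier results of these data known. Genes named are the 12 largest rises and falls with more than 3 counts in every library, the most abundant genes at 3 counts or fewer in one group, up to 5 called members per list by size and 3 others by level, genes the study names, genes in the order of YAP1 with the widest span, and those that differ between lines, with the most informative of these given. Members that held under all 3 fits, CD68, CDH1 and the 5 further genes so described were added after their values were seen. Some items are not reported here.

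Replicate numbers were checked by correlating deviations from the group means. The same-numbered YAP5SA libraries of the 2 lines correlated at 0.398, 0.16 and 0.167. By the rule of every such correlation above 0.1 the number was used as a block. The siYAP libraries did not meet the rule, but the block took in every triplicate, theirs included. YAP5SA libraries of unlike number correlated between -0.402 and 0.333, the latter for HaCaT replicate 3 and A431 replicate 2. The rule looks at same-numbered libraries only and cannot show that the numbers pair them. Alternatives were RLE factors, the likelihood ratio test, DESeq2 1.42.0, other filters and call rules, fewer libraries, siCTRL as a second control, each YAP5SA library left out, the number as a block, YAP1 left out of totals, and GC.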

Additional observations from a re-analysis of the deposited data

Results flagged for a closer look

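For 13 genes the effect of YAP5SA differed between HaCaT and A431 cells by the test of the difference itself (edgeR's quasi-likelihood test, 0.0886% of genes). With the GC trend removed 6 of the 13 kept the call, without replicate 3 of the HaCaT YAP5SA libraries 9 did, and with the replicate block 12 did, RPS15 being lost (FDR = 0.057). Differences are given as log2 fold change in HaCaT minus that in A431.

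SERINC2 differed by 2.3, the Polycomb subunit PHC2 by 1.4 (FDR = 0.0283), the adhesion molecule PVRL2 by 1.56 (FDR = 0.0202), the raft protein FLOT2 by 1.4 (FDR = 0.0275), the Mediator subunit MED15 by 1.88 (FDR = 0.0275) and RPS15, a ribosomal protein, by 1.39 (FDR = 0.0425). In each of these 6 the A431 log2 fold change lay between -0.33 and -0.05 and the HaCaT empty vector library was below all 3 YAP5SA libraries. DNAJC6, a co-chaperone of clathrin uncoating, had 4.68 CPM and 23.2, 35.3 and 31.1 CPM in HaCaT cells and differed by 2.47 (FDR = 0.0303). It was the gene that stayed called with 2 controls.

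The genes with a lower value in HaCaT cells were ARRDC3, an arrestin-related adaptor, at -1.83 (FDR = 0.0303), the sodium pump subunit ATP1B3 at -1.44 (FDR = 0.0384) and the long non-coding LINC01578 at -1.06 (FDR = 0.0425). ARRDC3 had 205 CPM and 66.9, 53.3 and 72.4 CPM in HaCaT cells, and its A431 libraries lay between 61.9 and 71.5 CPM.

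MTCL1, RAB43 and NPIPB3 were at 2, 0 and 0 counts in the HaCaT empty vector library, so their differences of 4.81, 10.61 and 8.39 depend on the prior count. Against 3 counts the lowest YAP5SA library of RAB43 and NPIPB3 was at least 22.8-fold and 34.7-fold higher, while siCTRL had 3.88 CPM of RAB43 and 18.8 CPM of NPIPB3. NPIPB3 belongs to a family of near-identical copies, and its counts are uncertain.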

How the results depend on the processing

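The counts of 1026 genes called higher and 975 lower stayed within 1.5 times under RLE factors, the likelihood ratio test, DESeq2, other filters, the FDR alone, 2 controls, the replicate block and YAP1 left out of totals. They were 578 and 176 with a log2 fold change of at least 1, 408 and 246 in the 8 HaCaT libraries alone, 0 and 0 in the 4 libraries alone (2667 at an unadjusted p under 0.05, edgeR) and 410 and 412 with the GC trend removed, and leaving out 1 YAP5SA library gave 627 to 1334 and 516 to 1576. The 13 differences between lines became 108 with RLE factors, 778 with the likelihood ratio test, 943 with DESeq2, 35 with no filter, 217 with more than 10 counts in every library, 138 with YAP1 left out, 21 with the replicate block, 1 with 2 controls and 12 to 610 with a library left out. With 0.25 CPM added the genes past 1 on the log2 scale were 939 between empty vector and replicate 1, 293 between replicates 1 and 3 and 469 between replicates 2 and 3. Of 85 named called genes 63 kept the call with the GC trend removed, 62 with 2 controls, 63 without replicate 3, 56 in the 8 HaCaT libraries alone and 0 in the 4 libraries alone. Of genes given as held, AREG, EREG, GRHL1, JAG1, IL1B, E2F3, DDIT4, ADAMTS6, ANTXR2 and DAPK2 lost the call in the 8 HaCaT libraries alone. The replicate block changed no call of theirs. Signs turned with 2 controls for VGLL1 (-1.19), ITGB4 (-0.054), ITGA6 (0.19), KRT5 (0.0022), PCNA (0.54), MTRNR2L8 (-0.85) and NPIPB3 (-1.3, difference -1.29), with the GC trend removed for WWTR1 (-0.20), ITGB1 (0.14), E2F1 (-0.054) and CRB3 (-0.085), and without a replicate for WWTR1 (-0.018 to 0.20 over the 3 libraries left out) and AZIN2 (0.12). The cause of these changes was not tested. Every value rests on 1 empty vector library. In that library 3 counts are worth 0.0873 CPM before TMM scaling and 0.0955 CPM after it.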
